A study of Homo sapiens with 9 samples.

Results

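The guides described here target 23 genes that make cholesterol and fatty acids or control their synthesis. They were selected by gene name and by no cutoff on a measured value, but the list was made with earlier results of these data known. They comprise the 92 guides (4 per gene) carrying these names among 76441 targeting guides against 19114 genes. One guide against FDPS had 27 reads at day 0, under the minimum of 30, so 91 guides were used and all 23 genes had a score. By role, 6 genes belong to the mevalonate pathway, 1 to the geranylgeranyl branch, 6 to the sterol branch, 6 to control by the sterol regulatory element-binding proteins (SREBPs) and 4 to fatty acid synthesis.

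HEL is a human JAK2-mutated erythroleukemia line, used here as HEL-Cas9 cells that express the Cas9 nuclease, and every library came from cells infected with the pooled Brunello lentiviral knockout library and held under puromycin and blasticidin. Guide DNA was amplified from genomic DNA in 1 library at day 0, in 4 libraries after 12 days under DMSO, the solvent control, and in 4 libraries after 12 days under 200 nM ruxolitinib (RUX), an inhibitor of the kinases JAK1 and JAK2. The comparisons ask which genes the cells needed in culture without the inhibitor, which under it, and whether any differed between these conditions. Only growth in one cell line was read out, RNA, protein and lipid levels were not analysed here, and the cells grew in medium with fetal bovine serum, which carries cholesterol and fatty acids from outside.

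Cells build sterols and isoprenoids from acetyl-CoA through mevalonate. The pathway yields farnesyl diphosphate, which is either joined into squalene on the way to cholesterol or extended to geranylgeranyl diphosphate, and both isoprenoids are also attached to proteins. Acetyl-CoA made from citrate is alternatively carboxylated, built into palmitate and desaturated. SREBP precursors in the endoplasmic reticulum are escorted to the Golgi by SCAP when sterols are low, cut there by the site-1 and site-2 proteases MBTPS1 and MBTPS2, and released as transcription factors for the genes of both branches, while INSIG proteins hold SCAP back when sterols are plentiful.

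A guide's value in a library was ln((value + 5)/(day 0 value + 5)), a natural log ratio to day 0 after the libraries were scaled to equal levels of the non-targeting control guides, and a gene's score was the mean over its guides. A score of 0 means that guides kept pace with the controls, and a score below −0.5 means that guides were depleted. The study also used −0.5 as its dependency threshold, but on another measure, scores from mageck mle with a copy number step. Counts below −0.5 here are therefore not directly comparable with its counts. Both day 12 conditions were set against the same single day 0 library, so a chance deviation at day 0 enters all 8 scores of a gene. Counts out of 8 libraries and SDs over 8 pool both conditions and use the same guides. They are therefore not drawn from 8 independent measurements of a gene. The sequences of these guides and the exons they cut were not used here.

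Read totals ranged from 21783913 to 26611323 under DMSO and from 19631338 to 24526993 under RUX, with 21983632 at day 0, and the median guide against these genes had between 179.5 and 219 reads. The mean log ratios of 990 control guides had a 5th percentile of −0.44 and a 95th of 0.36 under DMSO, and of −0.35 and 0.34 under RUX. DMSO replicate 3 was noisier than the rest, with a control guide SD of 0.46 where the remaining 7 libraries had 0.26 to 0.30.

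Low scores belonged to a few genes of the pathway. Under DMSO, 3 of 23 genes scored below −0.5, the stearoyl-CoA desaturase SCD (−0.81 ± 0.30, SD, n = 4 libraries), the site-2 protease MBTPS2 (−0.73 ± 0.16) and the SREBP escort SCAP (−0.56 ± 0.23). That is 13% of the members, against 4.32% of 19112 genes. Without the noisier DMSO replicate 3 these genes had −0.74, −0.71 and −0.57. Under RUX, 5 of 23 did so (21.7%, against 4.63% of all genes), namely SCAP (−0.67 ± 0.18), SCD (−0.65 ± 0.04), the citrate lyase ACLY (−0.56 ± 0.23), the farnesyl diphosphate synthase FDPS (−0.53 ± 0.11) and the HMG-CoA synthase HMGCS1 (−0.53 ± 0.24). The acetyl-CoA carboxylase ACACA lay at the other end, at 0.47 ± 0.12 under DMSO and 0.31 ± 0.12 under RUX, rank 22 and rank 185 from the top of 19112 genes. The count under RUX was sensitive to the scaling and to 1 library. With libraries scaled to their totals only SCAP and SCD of the members stayed below −0.5, at −0.61 and −0.59, and without RUX replicate 2 FDPS and HMGCS1 both stood at −0.48, which left 3 members. The median member scored −0.19 under DMSO and −0.24 under RUX, beside −0.08 and −0.09 for all genes.

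No member passed limma with Benjamini-Hochberg adjustment over all genes. Against day 0, limma called 0 of 23 members lower under DMSO (0.356% of all genes were called) and 0 under RUX (0.544%), and the lowest adjusted p were 0.137 for MBTPS2 under DMSO and 0.244 for SCAP under RUX. At an unadjusted limma p under 0.05, 8 members (34.8%) were lower under DMSO, against 7.81% of all genes, and 8 (34.8%) were lower under RUX, against 8.29% of all genes. ACACA was the 1 member higher at that level, under DMSO. On reads summed per gene, edgeR and DESeq2 also called 0 members against day 0 in either condition. Fewer members were lower at an unadjusted p under 0.05 in these fits. Under DMSO 4 were lower with edgeR and 5 with DESeq2, and 2 were higher with each, beside 1410 and 1561 of all genes in either direction. Under RUX 4 were lower and 0 higher with each, beside 1602 and 1746 of all genes. The single day 0 library limits all comparisons with day 0, since the median standard error of a member against day 0 was 0.18. A pair of alternative variance settings of limma each made calls among the members. With no mean-variance trend, MBTPS2 (adjusted p = 0.0383) and SCD (adjusted p = 0.0458) passed under DMSO. With the trend taken over read level, a setting chosen after the data were seen, ACACA passed as higher under DMSO (adjusted p = 0.0419) and SCAP as lower under RUX (adjusted p = 0.0380).

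Counts were also taken over single guides. Of 91 guides, 19 lay below −0.5 under DMSO (20.9%, against 11.8% of 75434 targeting guides) and 17 under RUX (18.7%, against 11.8%). The non-targeting guides gave 3.03% and 0.808% below this level. In a limma fit over guides, 0 member guides and 0% of all guides passed against day 0 under DMSO, under RUX, or between the conditions. Below −0.5 in all 8 day 12 libraries were 4 member guides, or 4.4%, against 1.57% of targeting guides.

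The mevalonate pathway had low scores at its first and last steps measured here and scores near the genome-wide median between them. HMGCS1 (chr5:43287470-43313512, GRCh38, minus strand) condenses acetyl-CoA units into HMG-CoA. Its scores in DMSO replicates 1 to 4 were −0.42, −0.48, −0.54 and −0.36, and in RUX replicates 1 to 4 they were −0.35, −0.68, −0.79 and −0.29. All 8 libraries were below 0, and the RUX values enclosed the DMSO values. FDPS (chr1:155308748-155320666, plus strand) makes farnesyl diphosphate and is the target of nitrogen-containing bisphosphonates. Its scores were −0.21, −0.42, −0.51 and −0.50 under DMSO and −0.45, −0.69, −0.52 and −0.46 under RUX, again overlapping. The genome annotation names 8 pseudogenes of FDPS, and whether its guides also cut these was not tested.

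The enzymes in between scored closer to 0. The mevalonate kinase MVK stood at −0.17 ± 0.15 under DMSO and −0.05 ± 0.18 under RUX. The phosphomevalonate kinase PMVK had −0.02 ± 0.17 and −0.15 ± 0.12, in the same order. The decarboxylase MVD had −0.13 ± 0.16 and −0.24 ± 0.15. The isomerase IDI1, for which 3 pseudogenes are annotated, had −0.04 ± 0.13 and −0.08 ± 0.18. In each of the 8 libraries HMGCS1 and FDPS scored below all 4 of these enzymes, and the mean gap ranged from 0.29 (FDPS and MVD) to 0.43 (HMGCS1 and IDI1), while the order among MVK, PMVK, MVD and IDI1 changed between libraries.

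One guide carried much of the HMGCS1 score. The guide sg_8506 had a deposited value of 300.4 at day 0, values of 75.8, 86.7, 86.3 and 97.7 under DMSO and of 135, 99.99, 21.3 and 122 under RUX, or mean log ratios of −1.27 ± 0.10 and −1.37 ± 0.78. The other guides had −0.27 and −0.59 (sg_8505), −0.41 and −0.37 (sg_8508) and 0.14 and 0.21 (sg_8507) under DMSO and RUX. Without sg_8506, the guide most unlike the rest, HMGCS1 scored −0.18 under DMSO and −0.25 under RUX. For FDPS, sg_6192 had −0.74 ± 0.58 under DMSO and −1.05 ± 0.48 under RUX, sg_6190 had −0.53 ± 0.58 and −0.50 ± 0.24, and sg_6189 stayed near 0 at 0.05 ± 0.18 and −0.05 ± 0.42. The guide sg_6192 rested on 73 reads at day 0, which limits its precision.

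GGPS1, which makes the geranylgeranyl diphosphate attached to small GTPases, scored −0.34 ± 0.19 under DMSO and −0.19 ± 0.24 under RUX. None of its 4 guides averaged below −0.5 in either condition. Its libraries ran from −0.50 to −0.06 under DMSO and from −0.40 to 0.16 under RUX, so the conditions overlapped.

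In the sterol branch, which leads from farnesyl diphosphate to cholesterol, no gene scored below −0.5, and the lanosterol synthase LSS was the lowest. LSS (chr21:46188141-46228824, minus strand), which closes the sterol ring system, had −0.47, −0.18, −0.50 and −0.35 under DMSO and −0.32, −0.32, −0.40 and −0.40 under RUX. It was below 0 in every library, but did not pass limma against day 0 (adjusted p = 0.554 under DMSO and 0.561 under RUX). SC5D, a late desaturase of the ring, had −0.27 ± 0.26 and −0.29 ± 0.08.

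The other 4 sterol enzymes had mean scores between −0.13 and 0.26. FDFT1, the squalene synthase that commits farnesyl diphosphate to sterols, had 0.21 ± 0.15 under DMSO and 0.26 ± 0.09 under RUX, and 7 of its 8 libraries were above 0. SQLE, the squalene epoxidase, had 0.16 ± 0.22 and −0.03 ± 0.22. The lanosterol demethylase CYP51A1, with 3 annotated pseudogenes, had −0.05 ± 0.17 and 0.03 ± 0.11. DHCR7, a reductase of the last steps, had 0.02 ± 0.09 and −0.13 ± 0.04. FDFT1 scored above LSS in each of the 8 libraries, by 0.60 ± 0.11 (SD, n = 8), and above SC5D by 0.51 ± 0.20, although all 3 act on the same route.

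Control of SREBP held the lowest median of the roles with more than 1 gene, −0.44 under DMSO and −0.40 under RUX, with 2 of 6 genes below −0.5 under DMSO and 1 of 6 under RUX. MBTPS2 (chrX:21839617-21885423, plus strand) makes the second cut, within the membrane. Its scores were −0.55, −0.91, −0.82 and −0.66 under DMSO and −0.65, −0.55, −0.28 and −0.39 under RUX. The 2 highest libraries were both under RUX, but the lowest RUX libraries lay below the highest DMSO library, so the conditions overlapped. MBTPS2 ranked 298 from the bottom of 19112 genes under DMSO and 1019 under RUX, and 48.0% of its day 0 level remained under DMSO against 62.6% under RUX (geometric mean over guides).

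Several guides carried the MBTPS2 score. Under DMSO and RUX, sg_38583 had −1.20 ± 0.42 and −0.85 ± 0.08, sg_38585 had −0.86 ± 0.25 and −0.64 ± 0.43, sg_38586 had −0.53 ± 0.41 and −0.41 ± 0.20, and sg_38584 had −0.34 ± 0.31 and 0.02 ± 0.12. All 4 means were higher under RUX than under DMSO. Leaving out sg_38584, the guide most unlike the rest, gave −0.86 and −0.63.

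SCAP and MBTPS1 each rested on 1 guide. SCAP (chr3:47413681-47477126, minus strand) scored −0.83, −0.61, −0.55 and −0.27 under DMSO and −0.85, −0.43, −0.72 and −0.67 under RUX. Its guide sg_31292 had a deposited value of 206.6 at day 0, values of 22.1, 60.7, 42.2 and 74.0 under DMSO and of 12.1, 26.8, 20.3 and 64.6 under RUX, and mean log ratios of −1.49 ± 0.47 and −1.98 ± 0.59. The other guides, sg_31291, sg_31293 and sg_31294, had −0.34, −0.04 and −0.39 under DMSO and −0.30, −0.07 and −0.33 under RUX. Without sg_31292 the SCAP scores were −0.26 and −0.23, so the position of SCAP below −0.5 depended on that guide in both conditions.

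MBTPS1 (chr16:84053761-84116942, minus strand), which makes the first cut of SREBP, had −0.38, −0.36, −0.58 and −0.45 under DMSO and −0.16, −0.62, −0.51 and −0.44 under RUX. Its guide sg_22779 started at a deposited value of 347.7 and had values of 123, 81.9, 51.6 and 70.3 under DMSO and of 144, 42.6, 49.7 and 41.9 under RUX, with mean log ratios of −1.51 ± 0.34 and −1.76 ± 0.55. The other 3 guides averaged between −0.21 and 0.09, and without sg_22779 the gene scored −0.09 under DMSO and 0.01 under RUX. Between its highest and lowest guide mean over all 8 libraries MBTPS1 spanned 1.70 and SCAP 1.68, against a median span of 0.58 for genes with 4 guides.

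The SREBP transcription factors themselves differed from each other. SREBF1 (chr17:17810399-17837002, minus strand), whose products act mainly on fatty acid genes, had −0.24, −0.55, −0.50 and −0.46 under DMSO and −0.22, −0.46, −0.37 and −0.39 under RUX. SREBF2 (chr22:41833105-41907306, plus strand), whose product acts mainly on cholesterol genes, had 0.05, 0.11, 0.11 and 0.21 under DMSO and 0.11, 0.13, 0.18 and 0.02 under RUX. SREBF1 scored below SREBF2 in each of the 8 libraries, by 0.51 ± 0.15, and SREBF2 also lay above SCAP, MBTPS1 and MBTPS2 in all 8. As guides of both genes disagreed, they are given here although the rule for naming guides did not choose them. Of the SREBF1 guides, 3 averaged from −0.89 to −0.58 under DMSO and from −0.97 to −0.32 under RUX, while sg_18180 had 0.56 ± 0.07 and 0.54 ± 0.16. For SREBF2, sg_18181 had 0.73 ± 0.35 and 0.82 ± 0.20 and sg_18184 had −0.53 ± 0.35 and −0.32 ± 0.33. Without sg_18180 SREBF1 scored −0.77 under DMSO and −0.66 under RUX. Without sg_18181, the guide most unlike the rest, SREBF2 turned from positive to negative, at −0.08 under DMSO and −0.13 under RUX.

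INSIG1, the retention protein of SCAP, had −0.09 ± 0.30 under DMSO and −0.31 ± 0.36 under RUX, the widest spread between RUX libraries of any member. Its RUX scores were −0.07, −0.33, −0.81 and −0.03, and without RUX replicate 3 the RUX mean was −0.14. The guide sg_9645 averaged −0.50 ± 0.63 under DMSO and −1.02 ± 0.57 under RUX.

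The genes of fatty acid synthesis held both extremes among the members under DMSO, while under RUX SCAP was the lowest member. ACLY (chr17:41866917-41930542, minus strand), which splits citrate into the acetyl-CoA used by both branches, had −0.50, −0.43, −0.42 and −0.24 under DMSO and −0.29, −0.58, −0.84 and −0.52 under RUX. Its guides agreed in sign of the mean in both conditions. Under DMSO and RUX, sg_139 had −0.51 and −0.77, sg_140 had −0.35 and −0.99, sg_138 had −0.33 and −0.39, and sg_137 had −0.41 and −0.08. The RUX mean of sg_140 came from replicates 3 and 4, with −1.99 and −1.35, while replicates 1 and 2 had −0.38 and −0.23.

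SCD (chr10:100347233-100364826, plus strand), which puts the first double bond into stearate and palmitate, was the lowest member under DMSO. Its scores were −1.09, −0.43, −1.02 and −0.71 under DMSO and −0.61, −0.62, −0.68 and −0.68 under RUX, ranks 223 and 439 from the bottom. The DMSO libraries were spread to both sides of the narrow RUX range. All 4 SCD guides averaged below −0.5 under DMSO, and 3 did so under RUX. The guides sg_16862, sg_16863 and sg_16864 had −0.94, −0.87 and −0.92 under DMSO and −1.05, −0.70 and −0.998 under RUX. The fourth, sg_16861, had a deposited value of 70.6 at day 0, values of 45.3, 70.4, 28.1 and 37.4 under DMSO and of 81.8, 108, 79.1 and 92.9 under RUX, or mean log ratios of −0.51 ± 0.34 and 0.15 ± 0.13. The mean of sg_16861 was higher under RUX by 0.66, a difference that limma did not call over the 75434 guides, and it rested on 70 reads at day 0. One SCD pseudogene is annotated, and whether guides cut it was not tested.

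ACACA (chr17:37084992-37406836, minus strand), which makes malonyl-CoA and so commits acetyl-CoA to fatty acids, had scores above 0 in every library. They were 0.55, 0.30, 0.58 and 0.46 under DMSO and 0.43, 0.36, 0.28 and 0.16 under RUX. Guide levels thus stood at 160% of the day 0 level under DMSO and 136% under RUX, and the conditions overlapped. All 4 guides averaged above 0 under DMSO, at 0.36, 0.26, 0.82 and 0.45 for sg_89, sg_90, sg_91 and sg_92, and under RUX at 0.07, −0.04, 0.44 and 0.77. These guides are given because of the gene's rank, a choice made after its values were seen. The 20 nearest genes on the chromosome had a median of −0.27 under DMSO and −0.20 under RUX, below the genome-wide medians.

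FASN, the synthase that turns malonyl-CoA into palmitate, had −0.19 ± 0.20 under DMSO and −0.09 ± 0.09 under RUX, with 0 of 4 guides below −0.5 in either condition. In each of the 8 libraries the order ran from SCD, the lowest of the 3, through FASN to ACACA. ACLY lay below ACACA in all 8, by 0.87 ± 0.18, and below FASN in 7 of 8. SREBF1, ACACA, ACLY and FASN all lie on chromosome 17 and differed in sign, with 3 below 0 and 1 above 0. Whether copy number differs between these positions was not tested.

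Between RUX and DMSO no member passed the test. In this comparison limma called 0 of 23 members and 0% of all genes, and the libraries of the conditions did not separate for any member, against 4.94% of all genes. At an unadjusted limma p under 0.05 there was 1 member, MBTPS2, against 8.94% of all genes, 1709 genes in all. Over all genes edgeR called 5 and DESeq2 52, with 0 members in either. The differences, RUX minus DMSO, ran from −0.22 for INSIG1 to 0.26 for MBTPS2 with a median of −0.02, and 13 members were lower and 10 higher under RUX. Over all members the 95% confidence intervals of the difference reached no lower than −0.55 and no higher than 0.53.

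For MBTPS2 the difference was 0.26 with a 95% confidence interval from 0.00 to 0.53 (adjusted p = 0.558 over all genes, limma). By exact permutation of the 4 and 4 libraries the two-sided p was 0.0857, where 0.0286 is the smallest value it can give. Leaving out any 1 of the 8 libraries kept the difference between 0.20 and 0.33. The difference thus passed neither the adjusted limma test nor the permutation test at 0.05.

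The other genes of these pathways were taken from a list of 71, of which 70 had a score. Under DMSO 4 of them, or 5.71%, scored below −0.5, and under RUX 5, or 7.14%, shares set against the 4.32% and 4.63% of all genes given above. NUS1, a subunit of the enzyme that extends farnesyl diphosphate to the dolichol precursor for protein glycosylation, was the only one called by limma. It scored −1.12, −0.89, −0.92 and −1.17 under DMSO (adjusted p = 0.0412) and −1.14, −0.97, −1.20 and −1.21 under RUX (adjusted p = 0.0178), with 3 of 4 guides below −0.5 in each condition. The annotation names 4 pseudogenes of NUS1, and whether its guides cut these was not tested. Its score was lower than that of each of the 23 members in both conditions.

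ACSL4, which activates arachidonate and other long polyunsaturated fatty acids, had −0.86 ± 0.20 under DMSO and −0.65 ± 0.17 under RUX, with 4 and 3 of 4 guides below −0.5. FNTB, the beta subunit of farnesyltransferase, had −0.66 ± 0.36 and −0.70 ± 0.38 over 3 guides, 1 of them below −0.5. The elongase ELOVL3 had −0.56 ± 0.10 and −0.59 ± 0.32. CBR4, a reductase of mitochondrial fatty acid synthesis, had −0.34 ± 0.19 under DMSO and −0.68 ± 0.13 under RUX. CBR4 was 1 of 6 such genes whose libraries did not overlap between conditions (8.57% of 70, against 4.94% of all genes), with a difference of −0.33 and an adjusted p of 0.494 (limma).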

How the data were processed

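Guide reads were counted by the authors with MAGeCK, and the deposited unit is a signal, 1 scaled value per guide and library. In each library the deposited signal was a whole read count times 1 factor (within 0.001), so reads were recovered for edgeR and DESeq2. An automated check accepted this for 7 libraries and not for day 0 and RUX replicate 1, whose factors are near 1. All 9 value columns belong to a sample, leaving 0 without one. The authors' beta scores from mageck mle, which include a copy number step, and a copy number profile of the cells were not used here.

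Libraries were rescaled by the median ratio over non-targeting guides. Guides under 30 at day 0 and genes with fewer than 2 remaining guides were left out, the pseudocount was 5, and scores are natural logs. All 9 libraries entered limma 3.58.1 (R 4.3.3) with 1 mean per condition, no block and a variance trend over the mean score, which gives the lone day 0 library the spread of the day 12 libraries. Adjustment was by Benjamini-Hochberg over all genes or guides at 0.05, and confidence intervals used limma's moderated degrees of freedom. Alternatives were other scalings, pseudocounts, read minimums, guide summaries and variance trends, the median of 20 neighbouring genes subtracted, each library left out, a replicate block, edgeR 4.0.16 and DESeq2 1.42.0. The steps were tested on simulated data. The labels do not say that replicates were separate cultures, so p-values measure the spread between these libraries, and PCR reads are not independent molecules.

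All 23 members are named. Guides are named for members below −0.5 in either condition or called by limma, and otherwise where a guide passed limma or averaged below −1. A difference between conditions is given where the unadjusted p is under 0.05 or libraries do not overlap. Other pathway genes are named where called or below −0.5. The members, lists and rules were chosen with earlier results of these data known. Positions are from GENCODE 44 (GRCh38), matched by symbol for 17948 genes and by an older symbol for 980, with 184 not placed.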

Additional observations from a re-analysis of the deposited data

How the results depend on the processing

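The number of members below −0.5 under DMSO stayed at 3 whichever library was left out, but without DMSO replicate 1 SCAP stood at −0.48 and SREBF1 at −0.50, just below the threshold. Under RUX it was 5 and became 2 with libraries scaled to their totals, scaled over all guides or left as deposited, with a pseudocount of 20, with the median over guides, or with the median of neighbouring genes subtracted. It was 3 with edgeR or DESeq2 fold changes, and ranged from 3 to 6 over the libraries left out, with 3 without RUX replicate 2. Under RUX, 16 settings could move a score, and ACLY was below −0.5 in 9 of them, HMGCS1 in 7, FDPS in 7, SCAP in 12 and MBTPS2 in 3. SCD was below −0.5 in all 16 in both conditions and MBTPS2 in all 16 under DMSO. Under DMSO SCAP was below −0.5 in 10 of 16, SREBF1 in 3, HMGCS1 in 1 and FDPS in 1, so the count of 3 was not kept in every setting. With edgeR or DESeq2 fold changes SCAP stood at −0.31 under DMSO, and with the median of neighbouring genes subtracted at −0.46. The position of ACACA above 0 held in all 16 in both conditions. Members called against day 0 under DMSO numbered 0, 2 with no variance trend and 1 with the trend over read level, and under RUX 0 and 1 with the latter. Of all genes, 825 were below −0.5 under DMSO, 431 with edgeR, 431 with DESeq2 and 524 with neighbours subtracted, and under RUX 884, 540, 541 and 518. Leaving out 1 library gave 792 to 934 and 880 to 919. Calls between RUX and DMSO over all genes numbered 0, 5 with edgeR, 52 with DESeq2 and 8 with the trend over read level, with 0 members in each. Causes of these shifts were not tested.

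Deviations of same-numbered DMSO and RUX libraries from their group means correlated at −0.01, −0.13, −0.11 and 0.03 over genes, so no pairing by number was visible. These values cannot show whether the same number marks a shared culture or day, which the labels do not state. With the replicate number as a block limma called 0 genes between the conditions, and MBTPS2 differed by 0.26 (adjusted p = 0.639, limma). Scores against day 0 have no blocked fit, as day 0 has no number. No library stood out within a group for any member in the 46 groups of 4 checked, where chance gives 2.3. Depth limits guides such as sg_6192 and sg_16861, with 73 and 70 reads at day 0.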
